A study of Mus musculus with 10 samples.

Results

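The genes described are 10 genes of the circadian clock, *Per1*, *Per2*, *Per3*, *Cry1*, *Cry2*, *Arntl*, *Clock*, *Nr1d1*, *Dbp* and *Bhlhe40*. They were picked by gene name from a table of 29268 genes measured in the mouse uterus by RNA sequencing, and all 10 had enough counts to be tested. The uteri came from 5 HSD17B1TG and 5 wild-type (WT) females of the FVB/N strain, aged 4 months, with 1 library per mouse. HSD17B1TG mice carry a heterozygous transgene with the human HSD17B1 cDNA, which encodes an enzyme that turns estrone into the more active estradiol. The transgene is driven by the chicken beta actin promoter with a CMV enhancer, so it is active throughout the body and not in the uterus alone. The WT mice carried no transgene, and the labels give no further treatment. As a model, the comparison has a limit: WT females were sampled wherever they stood in the estrous cycle, which the HSD17B1TG females lack. The mice were kept under 12 h of light and 12 h of darkness, and the hour at which each uterus was taken is not given in the sources used here. Time of day, cycle phase and genotype therefore cannot be told apart in a single mouse. Mice are written TG1 to TG5 for the transgenic and WT1 to WT5 for the wild-type group.

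The clock is a loop of transcription and translation that runs in almost every cell. ARNTL (also called BMAL1) and CLOCK form a dimer that binds E-boxes, a short DNA motif, and switches on the *Per* and *Cry* genes, whose proteins return to block the dimer. In a further loop NR1D1 (REV-ERB alpha) represses *Arntl* through motifs where the ROR receptors activate it, DBP drives genes through D-boxes, and BHLHE40 (DEC1) competes for E-boxes. In a tissue sampled at different hours these genes differ in level with the hour, and several of them also respond to steroid hormones.

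Libraries held 14817228 to 23271988 counts. The members other than *Dbp* had at least 260 counts in every mouse, *Dbp* had slightly fewer in WT3, and the most was 7851. A count of 3, taken as the limit of detection, was 0.202 CPM (counts scaled to a common library total) in the mouse with the lowest total, which covers counting error only. Levels are given in FPKM, fragments per kilobase of transcript scaled by library depth, as deposited, so that they can be compared between genes. The uterine genes *Esr1*, *Pgr*, *Hoxa10* and *Hoxa11* were present in every mouse, at no less than 25.7, 14.3, 21.7 and 12.3 FPKM. Mouse *Hsd17b1* was at 0.992 ± 0.291 FPKM in the HSD17B1TG mice and 0.918 ± 0.375 FPKM in the WT mice (SD, n = 5). The transgene is human sequence, so the mouse gene does not check the genotype. Mitochondrial genes took 1.94% to 7.57% of the counts in HSD17B1TG and 2.58% to 3.37% in WT. TG1 and WT4 stood apart from their groups in the summed markers of epithelium and smooth muscle, and beside several results values without one of them are given. In whole tissue, fewer cells of a type and less RNA per cell cannot be told apart.

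The question put to these data was whether the clock genes differed between the HSD17B1TG and the WT uterus. *Per1* was lower in HSD17B1TG, by 1.97-fold, and was the single member with an adjusted p under 0.05. *Clock* had 1.49-fold lower levels, and *Bhlhe40*, *Nr1d1* and *Dbp* had 3.27-fold, 2.01-fold and 1.53-fold higher levels, none of which passed the test. *Arntl*, *Cry1*, *Cry2*, *Per2* and *Per3* differed by 1.22-fold or less. A gene was called when its adjusted p in edgeR was under 0.05, its fold over 2 and its mean FPKM over 1 in either group. By this rule 0 of the 10 members were called, where 4.24% of all 16993 genes tested were called, 2.16% higher and 2.08% lower. An adjusted p under 0.05 alone was reached by 1 of the 10 members, against 6.16% of all genes tested (3.34% higher and 2.81% lower). An unadjusted p under 0.05 was reached by 4 of the 10, against 26.1% of all genes. With DESeq2, an adjusted p under 0.05 was reached by 2 of the 10, *Per1* and *Bhlhe40*, against 12.9% of the genes that tool tested. The median log2 fold change of the members was 0.013, beside 0.0021 over all genes tested, and the median size of the change without its sign was 0.43 beside 0.35. The count called and the medians lay near those of all genes, and nothing particular to the members as a list is read from them.

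**Figure D1:**
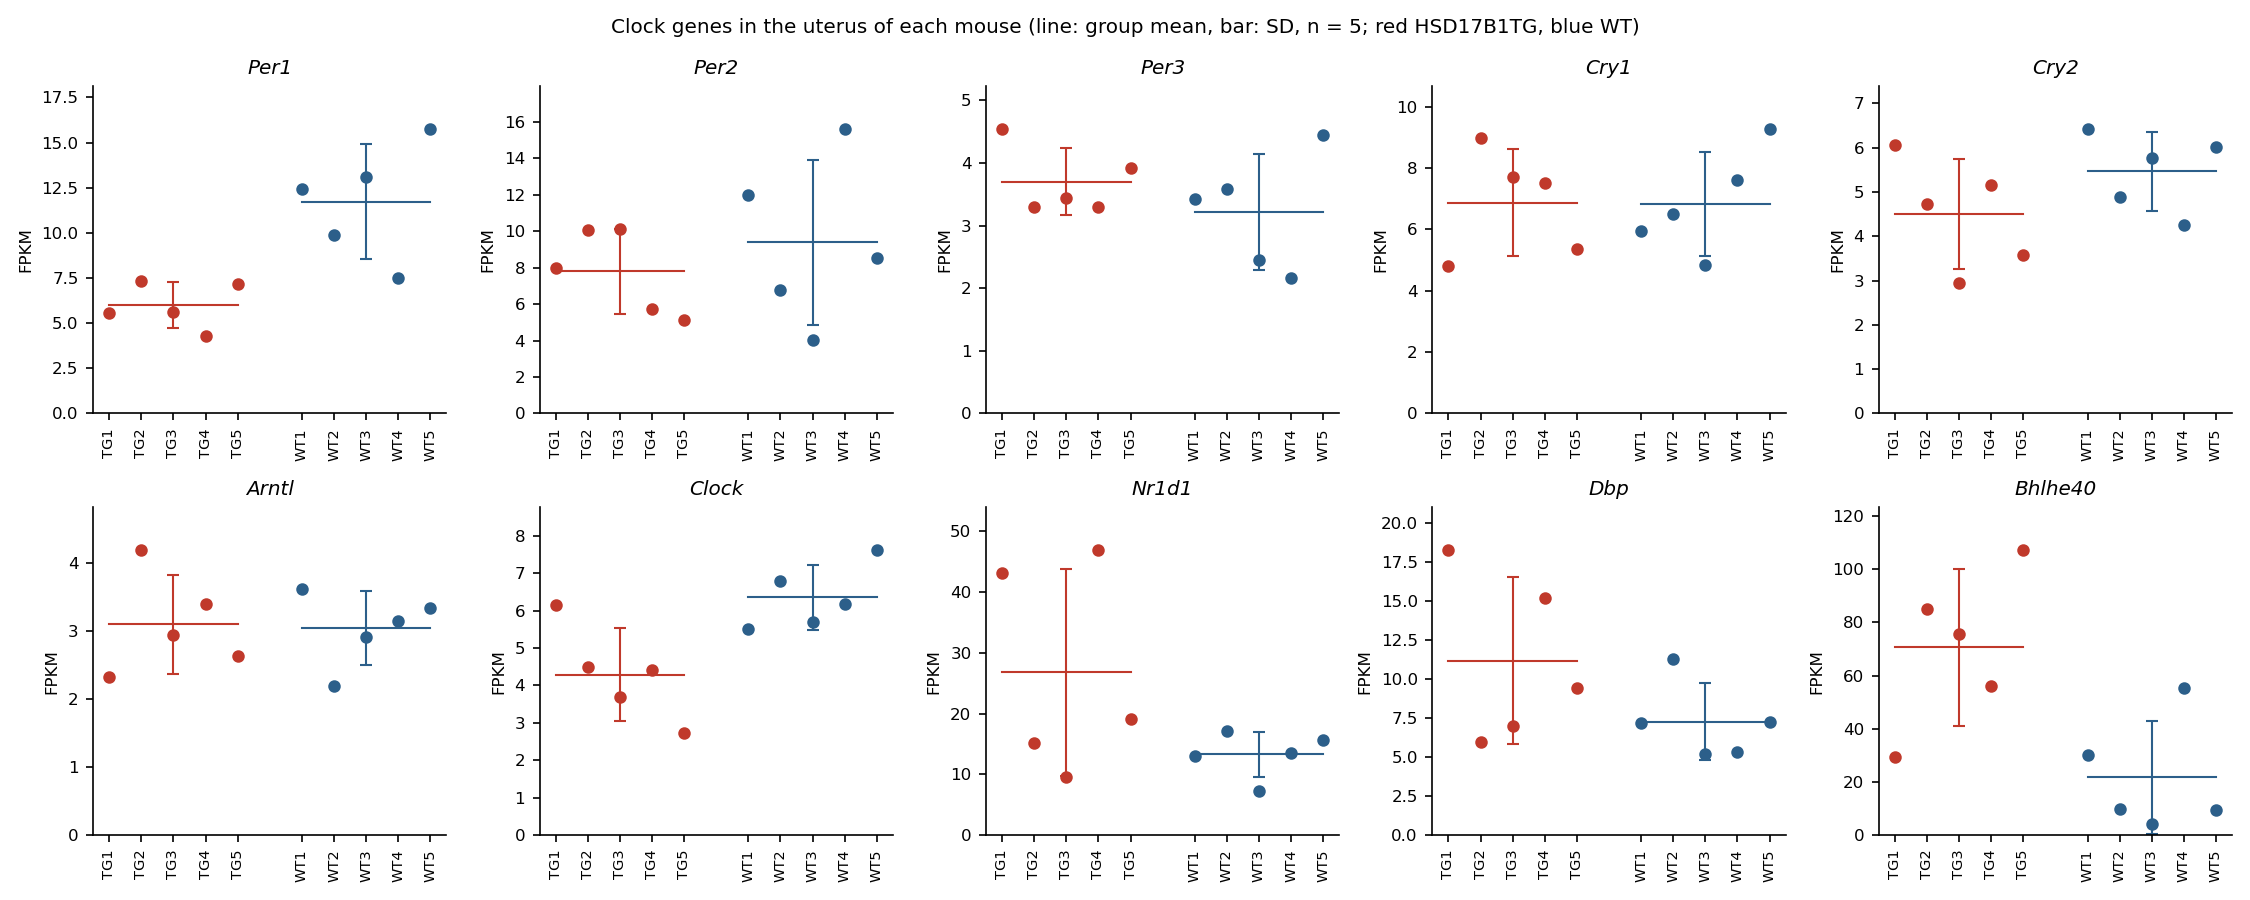
FPKM of the 10 clock genes (vertical axes, linear from 0) in each of the 10 mice (horizontal axes), with HSD17B1TG in red, WT in blue, a horizontal line at the group mean and a bar for the SD (n = 5). *Per1* is the gene whose groups do not overlap, with 7.33 FPKM in the highest HSD17B1TG mouse and 7.49 FPKM in the lowest WT mouse.

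The activators of the loop were measured at low levels. *Arntl* (ENSMUSG00000055116, GRCm38, chromosome 7 from 113207465 to 113314126) had 2.32, 4.19, 2.95, 3.40 and 2.64 FPKM in TG1 to TG5 and 3.63, 2.20, 2.92, 3.15 and 3.34 FPKM in WT1 to WT5. Its groups lay within each other's range, from TG2 as the highest mouse to WT2 as the lowest. Its log2 fold change, HSD17B1TG against WT, was 0.023 (SE, the standard error, 0.20, edgeR adjusted p = 0.955), with a 95% interval from -0.43 to 0.48. *Clock* (ENSMUSG00000029238, chromosome 5 from 76209868 to 76304792), which encodes the partner of ARNTL, had 6.14, 4.48, 3.68, 4.41 and 2.73 FPKM in TG1 to TG5 and 5.50, 6.78, 5.69, 6.19 and 7.62 FPKM in WT1 to WT5. In 4 HSD17B1TG mice it was below every WT mouse, while TG1 lay among the WT mice. The means were 4.29 ± 1.25 FPKM for HSD17B1TG and 6.36 ± 0.861 FPKM for WT (SD, n = 5). HSD17B1TG against WT gave a log2 fold change of -0.57 (SE 0.20, edgeR adjusted p = 0.101 and 0.0853 in DESeq2), and the exact permutation test (two-sided, on log2(FPKM + 1)) gave p = 0.0238. Without TG1, edgeR gave -0.73 with an adjusted p of 0.0303, and of the 10 fits without a mouse this 1 passed. The fit without TG1 called 1328 of all genes, beside 721 with all mice.

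*Arntl* is the member whose repression by NR1D1 is best known, so its ROR element (RORE) is shown. RefSeq promoter windows of 250 bases before to 50 after a start site were given for 8 of the 10 members, and none was given for *Per2* and *Bhlhe40*. The RORE was searched as AANTN followed by GGTCA on both strands, and 0.606% of the 32851 windows of all genes hold it. Among the members it was found in *Arntl* alone, from base 28 of the transcript that begins at its other start site. The 30 bases around the match are given with the matching letters in capitals, from GRCm38.p6 at chr7:113207528-113207557 on the plus strand.
Arntl RORE: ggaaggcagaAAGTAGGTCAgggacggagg
Such a match is a description of these letters and not evidence of binding in these uteri.

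*Per1* (ENSMUSG00000020893, chromosome 11 from 69095217 to 69109960), a light- and hormone-responsive repressor of the loop, had 5.58, 7.33, 5.60, 4.26 and 7.15 FPKM in TG1 to TG5 and 12.4, 9.86, 13.1, 7.49 and 15.8 FPKM in WT1 to WT5. Every HSD17B1TG mouse was below every WT mouse, but the gap between TG2 and WT4 was small. Groups that did not overlap, with HSD17B1TG lower, were seen in 2.65% of the genes tested, and in 6.69% in either direction. The means were 5.99 ± 1.27 FPKM for HSD17B1TG and 11.7 ± 3.16 FPKM for WT (SD, n = 5). *Per1* fell by 0.98 on the log2 scale (SE 0.22, edgeR adjusted p = 0.0342). The adjusted p was 0.0025 in DESeq2 and 0.0422 in limma voom, which put 4.87% of all genes under 0.05. The exact permutation test (two-sided, on log2(FPKM + 1)) gave p = 0.00794, the lowest that groups of 5 can reach. This p was not stable to the loss of 1 mouse: of the 10 fits that left out a mouse, 3 kept the adjusted p under 0.05 (without TG1, TG3 or WT4), and it lay between 0.0087 and 0.0750. The log2 fold change lay between -1.10 and -0.87 in these fits.

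*Per2* (ENSMUSG00000055866, chromosome 1 from 91415982 to 91459324), whose protein works beside that of *Per1*, had 7.95, 10.1, 10.1, 5.75 and 5.15 FPKM in TG1 to TG5 and 11.98, 6.76, 4.03, 15.6 and 8.52 FPKM in WT1 to WT5. The spread among the WT mice was wider than the difference between groups, and WT4 and WT3 were the highest and the lowest of all 10 mice. For *Per2* the log2 fold change was -0.27 (SE 0.33, edgeR adjusted p = 0.656), with a 95% interval from -1.04 to 0.50. *Per3* (ENSMUSG00000028957, chromosome 4 from 151003652 to 151044665), the third of the period genes, had 4.54, 3.29, 3.44, 3.30 and 3.91 FPKM in TG1 to TG5 and 3.42, 3.59, 2.45, 2.16 and 4.45 FPKM in WT1 to WT5. TG1 was just above WT5, and the other mice of both groups were mixed. Its log2 fold change was 0.20 (SE 0.20, edgeR adjusted p = 0.583), with a 95% interval from -0.27 to 0.66.

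The cryptochromes are the partners of the PER proteins and the stronger blockers of the ARNTL and CLOCK dimer. *Cry1* (ENSMUSG00000020038, chromosome 10 from 85131700 to 85185064) had 4.82, 8.97, 7.72, 7.50 and 5.35 FPKM in TG1 to TG5 and 5.95, 6.49, 4.83, 7.63 and 9.28 FPKM in WT1 to WT5. The means were 6.87 ± 1.73 FPKM for HSD17B1TG and 6.84 ± 1.70 FPKM for WT (SD, n = 5). They were nearly equal, and both groups covered almost the same range. The log2 fold change was 0.0026 (SE 0.23, edgeR adjusted p = 0.996), with a 95% interval from -0.52 to 0.52. *Cry2* (ENSMUSG00000068742, chromosome 2 from 92403646 to 92434043) had 6.06, 4.74, 2.95, 5.16 and 3.57 FPKM in TG1 to TG5 and 6.43, 4.89, 5.76, 4.24 and 6.03 FPKM in WT1 to WT5. TG3 and TG5 were below every WT mouse, and TG1 was the second highest of all. *Cry2* had a log2 fold change of -0.29 (SE 0.21, edgeR adjusted p = 0.417), with a 95% interval from -0.77 to 0.19.

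*Per1* and *Cry1* are targets of the same dimer and had different values here, so the 250 bases before their start sites are shown with the E-box CACGTG in capitals. This motif reads the same on both strands, and 7.15% of all promoter windows hold it. The *Per1* bases are GRCm38.p6 chr11:69098699-69098948 on the plus strand, with the E-box beginning 166 bases before the start site. The *Cry1* bases are chr10:85185055-85185304 on the minus strand, with the E-box beginning 60 bases before the start site.
Per1: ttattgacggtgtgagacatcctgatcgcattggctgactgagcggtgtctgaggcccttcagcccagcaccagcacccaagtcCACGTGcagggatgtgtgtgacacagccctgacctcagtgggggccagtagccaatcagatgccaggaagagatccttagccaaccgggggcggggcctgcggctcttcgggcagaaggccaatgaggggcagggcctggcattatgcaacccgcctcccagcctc
Cry1: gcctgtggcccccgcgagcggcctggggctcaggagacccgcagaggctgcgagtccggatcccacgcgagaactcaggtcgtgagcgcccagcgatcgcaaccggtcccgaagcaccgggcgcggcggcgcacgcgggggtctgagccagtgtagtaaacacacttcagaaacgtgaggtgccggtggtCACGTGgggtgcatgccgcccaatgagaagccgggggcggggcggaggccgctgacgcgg
The *Per1* start site shown is a RefSeq start that lies inside the gene span of the table, and the window of a further *Per1* start holds no CACGTG. No CACGTG was found in the windows of *Cry2*, *Per3*, *Arntl*, *Clock*, *Nr1d1* and *Dbp*, which says only that these letters are not in these windows. The cAMP response element TGACGTCA and the glucocorticoid response element (GNACA and TGTNC with 3 bases between them), held by 1.79% and 0.475% of all windows on either strand, were found in no window of the 8 members.

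*Nr1d1* (ENSMUSG00000020889, chromosome 11 from 98767932 to 98775333), which encodes the heme-binding nuclear receptor that represses *Arntl*, had 43.1, 15.2, 9.62, 46.9 and 19.1 FPKM in TG1 to TG5 and 12.99, 17.1, 7.27, 13.4 and 15.6 FPKM in WT1 to WT5. TG1 and TG4 were far above all other mice, TG5 was slightly above WT2, and TG2 and TG3 lay among the WT mice. The means were 26.8 ± 17.03 FPKM for HSD17B1TG and 13.3 ± 3.75 FPKM for WT (SD, n = 5). As a log2 fold change the difference was 1.01 (SE 0.42, edgeR adjusted p = 0.162 and 0.112 in DESeq2), and the two-sided exact permutation test gave p = 0.167. The within-group SD of its log2 CPM was 0.99 in HSD17B1TG and 0.48 in WT. The 3 HSD17B1TG mice above all WT mice were those with the highest share of mitochondrial counts, 5.74% in TG1, 6.87% in TG4 and 7.57% in TG5, beside 1.94% in TG2 and 2.49% in TG3. Whether this share had a part in the *Nr1d1* values was not tested.

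*Dbp* (ENSMUSG00000059824, chromosome 7 from 45705088 to 45710203), a D-box factor and the most used readout of clock output, had 18.2, 5.95, 6.98, 15.2 and 9.45 FPKM in TG1 to TG5 and 7.20, 11.3, 5.22, 5.32 and 7.26 FPKM in WT1 to WT5. TG1 and TG4 were again the highest mice, ahead of WT2, and WT3 was the lowest mouse for *Dbp* as it was for *Nr1d1*. The means were 11.2 ± 5.34 FPKM for HSD17B1TG and 7.26 ± 2.46 FPKM for WT (SD, n = 5). For *Dbp* this was a log2 fold change of 0.61 (SE 0.34, adjusted p = 0.279 in both edgeR and DESeq2), and of 0.37 without TG1 (edgeR adjusted p = 0.492). Summed smooth muscle markers were 7235 FPKM in TG1 and 3012 FPKM in TG4, and 404 FPKM in WT3, but WT4 with 5712 FPKM had one of the lowest *Dbp* levels. The part of muscle content in these levels was not tested.

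DBP activates through D-boxes and NFIL3 represses through them, and *Per3* was the member whose promoter window holds this motif. D-boxes were searched as TTATGTAA on both strands, and 0.938% of all windows hold one. The *Per3* window holds 2, beginning 205 and 158 bases before the start site. They are given in capitals in the 250 bases before it, GRCm38.p6 chr4:151044666-151044915 on the minus strand.
Per3: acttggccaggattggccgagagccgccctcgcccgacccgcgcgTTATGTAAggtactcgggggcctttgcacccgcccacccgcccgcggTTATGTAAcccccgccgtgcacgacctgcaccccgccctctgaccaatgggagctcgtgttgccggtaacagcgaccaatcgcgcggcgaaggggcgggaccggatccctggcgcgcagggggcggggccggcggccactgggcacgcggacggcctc
*Per3* itself stayed between 2.16 and 4.54 FPKM over the 10 mice.

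*Arntl* and *Dbp* peak at opposite times of day in peripheral tissues, so their relation over the 10 mice was tested on log2(FPKM + 1). Pearson's r was -0.51 (permutation test of 100000 pairings, two-sided, p = 0.136) and Spearman's rho was -0.35 (permutation p = 0.329). This was the only pair of genes tested. Without TG2 and WT2, the mice farthest from the median of *Arntl*, r was -0.40 (permutation p = 0.323). With each value taken as its deviation from the mean of its genotype, r was -0.59 (permutation p = 0.0775). Leaving out 1 mouse gave r between -0.31 (without TG1) and -0.70 (without TG4, permutation p = 0.0327). Without TG4, rho was -0.55 (permutation p = 0.133). The relation thus missed the threshold in the 10 mice, and leaving out 1 mouse moved r, but not rho, past it.

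**Figure D2:**
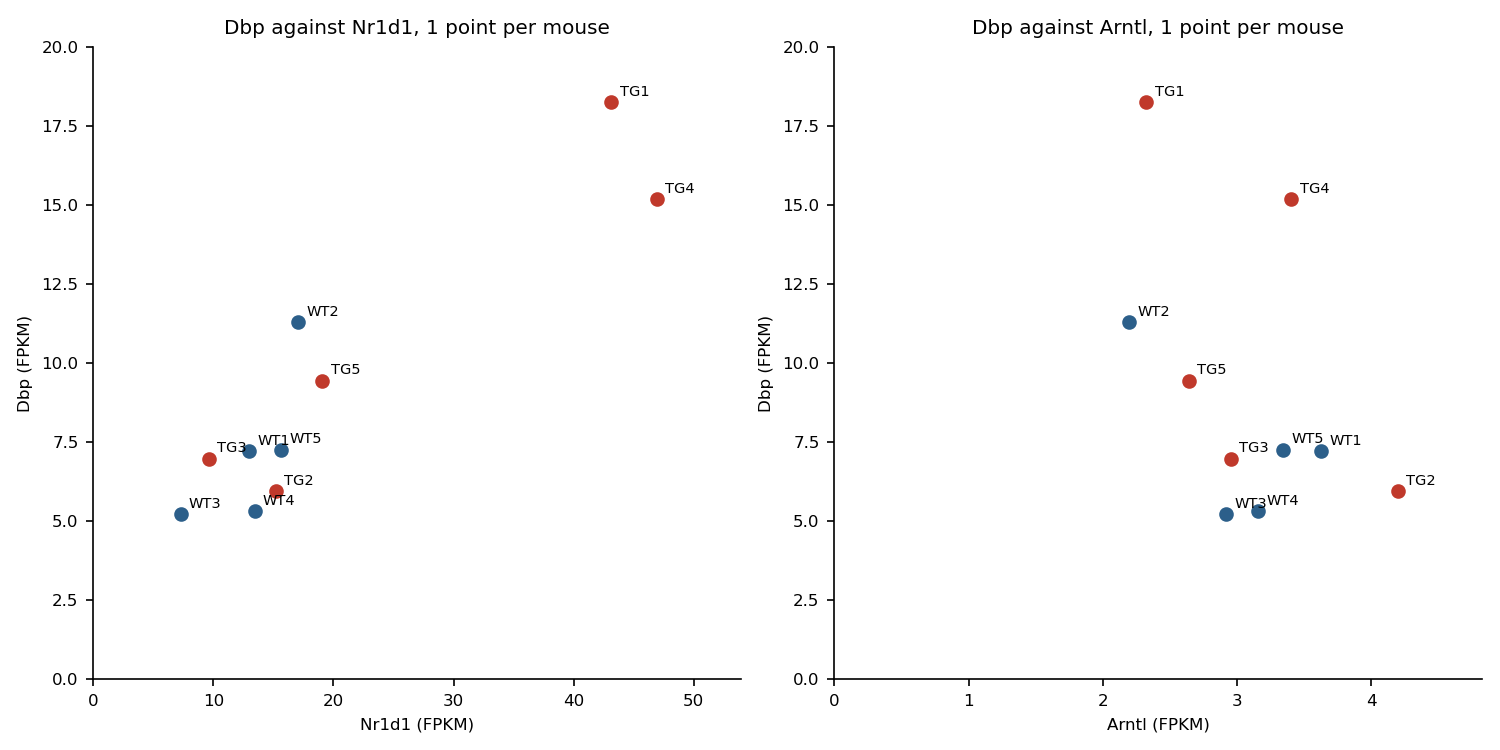
*Dbp* (vertical axes, FPKM) against *Nr1d1* (left) and *Arntl* (right), with 1 point per mouse, HSD17B1TG in red and WT in blue. TG1 and TG4 are the highest mice for both *Nr1d1* (43.1 and 46.9 FPKM) and *Dbp* (18.2 and 15.2 FPKM), while for *Arntl* they have 2.32 and 3.40 FPKM.

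*Bhlhe40* (ENSMUSG00000030103, chromosome 6 from 108660629 to 108666925), a basic helix-loop-helix repressor that responds to hypoxia, cytokines and steroids as well as to the clock, had 29.5, 84.9, 75.7, 55.98 and 107 FPKM in TG1 to TG5 and 30.1, 9.70, 4.03, 55.4 and 9.26 FPKM in WT1 to WT5. In 4 HSD17B1TG mice it was above every WT mouse, TG4 by little, while TG1 lay with WT1. WT4 stood far above the other WT mice. The means were 70.7 ± 29.5 FPKM for HSD17B1TG and 21.7 ± 21.3 FPKM for WT (SD, n = 5). For *Bhlhe40* the log2 fold change was 1.71 (SE 0.64, edgeR adjusted p = 0.124), and the adjusted p was 0.0437 in DESeq2, by which *Bhlhe40* was called. DESeq2 called 7.24% of the genes it tested. The two-sided exact permutation test gave p = 0.0317. Without WT4, edgeR gave 2.41 with an adjusted p of 0.0250, and of the 10 fits without a mouse this 1 passed. The highest adjusted p of these fits was 0.246. The fit without WT4 called 1539 of all genes, beside 721 with all mice. *Bhlhe40* was chosen in the study from these same samples among estrogen-regulated genes, so its direction is not independent evidence.

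*Bhlhe40* and the epithelial markers had nearly the same order of mice. The 10 epithelial markers (such as *Epcam*, *Krt8* and *Cdh1*) summed to 674 to 3117 FPKM in HSD17B1TG and 489 to 1599 FPKM in WT. The lowest HSD17B1TG sum was that of TG1 and the highest WT sum that of WT4, the mice that also broke the *Bhlhe40* pattern of their groups. Of these markers 9 of 10 were higher in HSD17B1TG and 0 reached an adjusted p under 0.05 in edgeR, with 8 of 10 at an unadjusted p under 0.05 and 3 under 0.05 adjusted in DESeq2. Over all genes tested these shares were 6.16%, 26.1% and 12.9%. The median log2 fold change of the 10 epithelial markers was 1.22, beside 1.71 for *Bhlhe40*. The part of epithelial content in the *Bhlhe40* levels was not tested.

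Of the stromal markers, beside which *Per1* is plotted, 6 of 7 were lower in HSD17B1TG, but not all by much. *Dcn* had a log2 fold change of -0.098 and *Lum*, the marker that was higher, 0.51 (edgeR adjusted p = 0.915 and 0.518). The 7 stromal markers summed to 485 to 1867 FPKM in HSD17B1TG and 1647 to 1988 FPKM in WT, and 4 of 7 fell with an adjusted p under 0.05 in edgeR (*Pdgfra*, *Col3a1*, *Hoxa11* and *Hand2*), with a median of -1.46 over the list. Over all genes tested, 2.81% were lower with an adjusted p under 0.05. TG1, with the highest HSD17B1TG sum, had the highest *Lum* and *Dcn* of the 10 mice, while its *Pdgfra*, *Col1a1*, *Col3a1* and *Hand2* were below those of every WT mouse. *Ncr1*, which encodes a receptor of natural killer cells, had 0.627, 1.68, 0.897, 1.09 and 1.08 FPKM in TG1 to TG5 and 9.80, 4.14, 12.3, 1.29 and 7.29 FPKM in WT1 to WT5. It fell by 2.70 on the log2 scale (SE 0.55, edgeR adjusted p = 0.0268 and 0.0749 in limma voom), and 3 of the 10 fits without a mouse kept it under 0.05. WT4, the WT mouse with the least *Ncr1*, was also the WT mouse with the least *Per1*. *Clock* shared the pattern of the stromal sums, with TG1 among the WT mice and the other HSD17B1TG mice below them all. The part of stromal or natural killer cells in the *Per1* levels, or of stromal cells in those of *Clock*, was not tested.

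**Figure D3:**
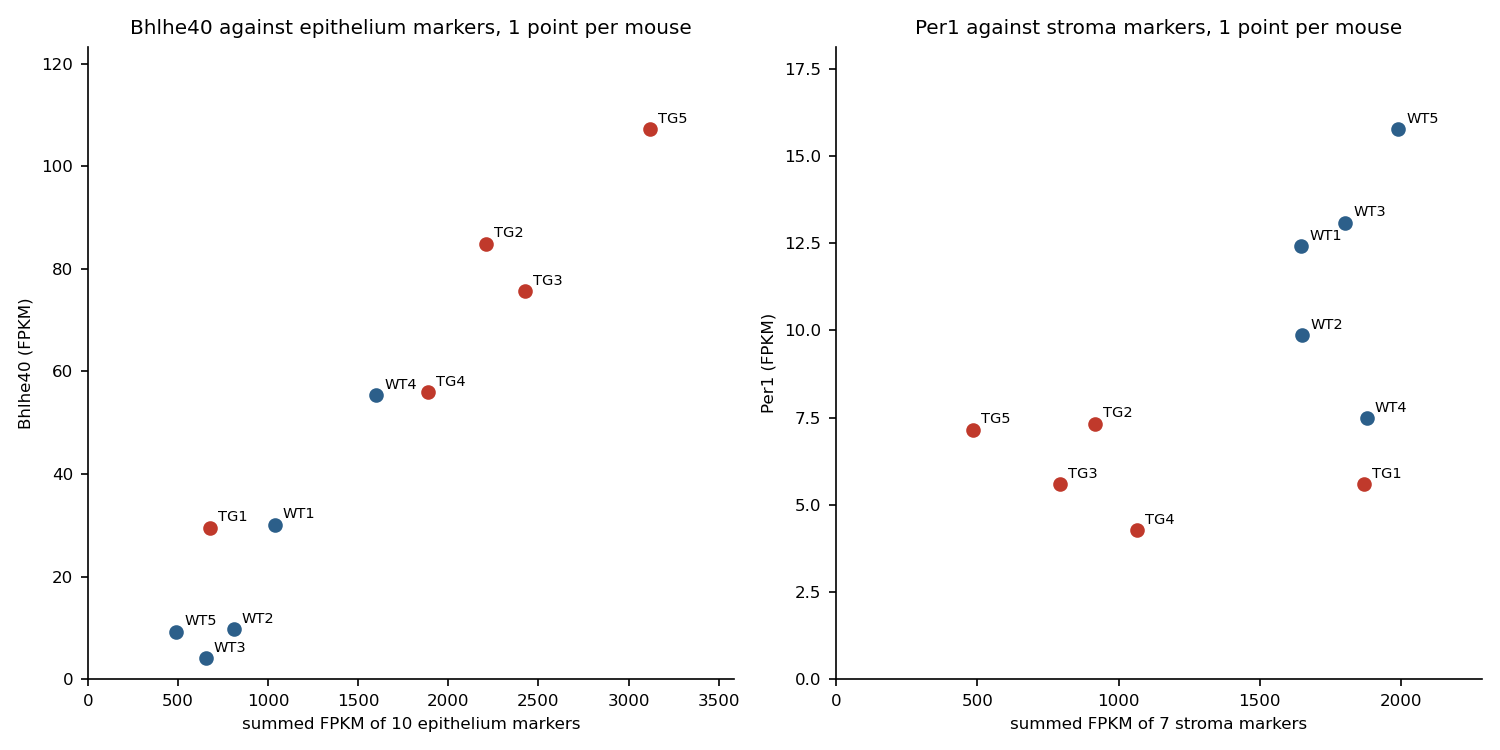
*Bhlhe40* against the summed FPKM of 10 epithelial markers (left) and *Per1* against that of 7 stromal markers (right), with 1 point per mouse, HSD17B1TG in red and WT in blue and linear axes from 0. TG5 has the highest epithelial sum (3117 FPKM) and the highest *Bhlhe40* (107 FPKM), and the stromal sums of the HSD17B1TG mice other than TG1 (1867 FPKM) lie below all WT sums.

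Of the other marker lists, all 7 smooth muscle markers were higher and all 5 endothelial markers lower in HSD17B1TG, and 0 of either reached an adjusted p under 0.05 in edgeR. An unadjusted p under 0.05 was reached by 0 and 3 of them, and DESeq2 gave 0 and 1. Over all genes tested these shares were 26.1% and 12.9%. Of the 8 leucocyte markers 5 could be tested, and *Cd68* and *Itgam* of the myeloid cells rose while *Ncr1* fell. *Adgre1*, a macrophage marker, and *Ptprc*, which all leucocytes carry, had log2 fold changes of -0.0082 and -1.08 (adjusted p = 0.990 and 0.0558 in edgeR, 0.0131 for *Ptprc* in DESeq2). *Cd3e*, which marks T cells, stayed below 0.3 FPKM in every mouse. Adipocyte markers summed to at most 23.7 FPKM in TG4 and 5.93 FPKM in WT2 and were too low to test. The oviduct and ciliated cell markers summed to between 0.463 and 5.08 FPKM.

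A further list held 23 other genes of the clock: paralogs, ROR receptors, D-box factors, kinases and ubiquitin ligases of the PER and CRY proteins, and known outputs. Of these, 10 were higher and 13 lower in HSD17B1TG, and 2 of 23 had an adjusted p under 0.05 in edgeR, both lower, where 6.16% of all genes tested passed in either direction and 2.81% were lower. An unadjusted p under 0.05 was reached by 9 of the 23, against 26.1% of all genes, and an adjusted p under 0.05 in DESeq2 by 7, against 12.9%. The median log2 fold change of the list was -0.13.

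**Figure D4:**
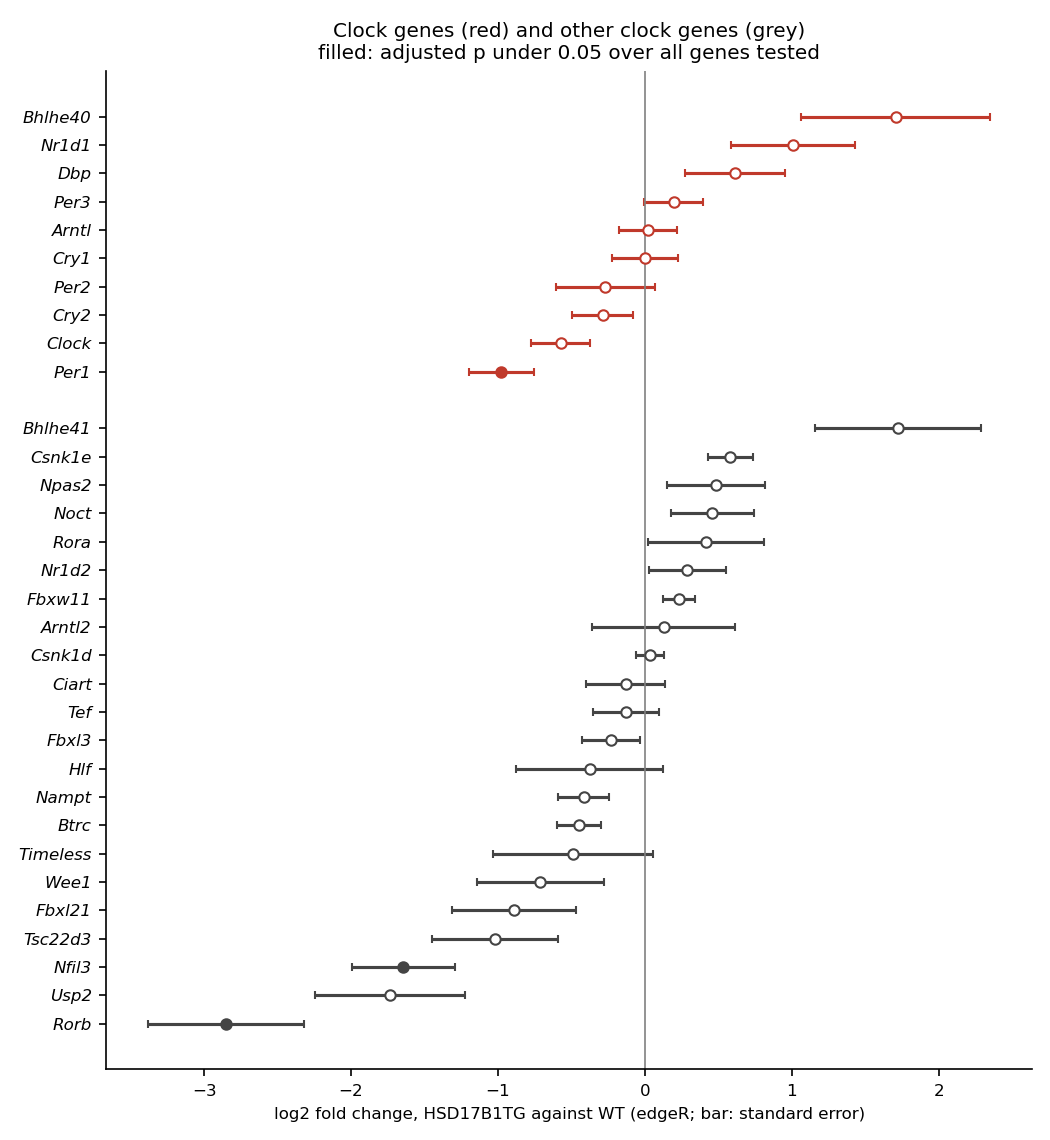
Log2 fold change of HSD17B1TG against WT (horizontal axis, 0 marks no difference) for the 10 clock genes in red and the other clock genes, 1 of them left out, in grey, with bars for the standard error of edgeR's fit over 5 mice per group. Filled points, with an adjusted p under 0.05, are *Per1* (-0.98), *Nfil3* (-1.64) and *Rorb* (-2.85), all to the left of 0.

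*Rorb*, an ROR receptor that activates through the same element NR1D1 represses, had 0.126, 0.711, 0.437, 0.286 and 0.917 FPKM in TG1 to TG5 and 3.39, 3.18, 5.63, 1.36 and 4.20 FPKM in WT1 to WT5. Every HSD17B1TG mouse was below every WT mouse, as in 2.65% of the genes tested, and WT4 was the closest to them. *Rorb* fell by 2.85 on the log2 scale (SE 0.53, edgeR adjusted p = 0.0229). Of the 10 fits without a mouse, 5 kept its adjusted p under 0.05, and the highest was 0.0575. *Nfil3* (also E4BP4), the D-box repressor that opposes DBP and is also needed for natural killer cells, had 6.17, 6.50, 4.30, 5.05 and 4.92 FPKM in TG1 to TG5 and 16.3, 5.12, 26.1, 17.2 and 19.3 FPKM in WT1 to WT5. WT2 lay among the HSD17B1TG mice and the other WT mice far above them. *Nfil3* fell by 1.64 on the log2 scale (SE 0.35, edgeR adjusted p = 0.0305 and 0.073 in limma voom), and 4 of the 10 fits without a mouse kept it under 0.05. Since *Nfil3* is used by natural killer cells, the fall of *Ncr1* stands beside it, and its part was not tested.

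*Csnk1e*, a kinase that marks PER proteins for degradation, had the next smallest p, with 12.9, 15.5, 16.4, 20.7 and 20.3 FPKM in TG1 to TG5 and 11.9, 10.2, 9.61, 13.1 and 12.3 FPKM in WT1 to WT5. In 4 HSD17B1TG mice it was above every WT mouse, and TG1 was below WT4. The log2 fold change was 0.58 (SE 0.16), with an adjusted p of 0.0513 in edgeR and 0.0167 in DESeq2. In edgeR it was 0.0222 without TG1 and 0.0345 without WT4. These fits called 1328 and 1539 of all genes, beside 721 with all mice. The *Bhlhe40* paralog *Bhlhe41*, higher in HSD17B1TG, and the ubiquitin protease *Usp2*, lower, were called by DESeq2 and not by edgeR, and were named for that after their values were seen. Their log2 fold changes in edgeR were 1.72 and -1.74, with adjusted p of 0.0865 and 0.0644. *Usp2* passed an adjusted p of 0.05 in 2 of the 10 fits without a mouse, those without TG1 and without WT4.

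*Per1* is also a target of the glucocorticoid receptor, and *Bhlhe40* of hypoxia, so lists of both responses were read from the same fit. Of 9 glucocorticoid-responsive genes 8 were tested, and *Fkbp5*, which encodes a chaperone of steroid receptors, was the only one with an adjusted p under 0.05 in edgeR, while 5 had an unadjusted p under 0.05 and DESeq2 gave 3 under 0.05 adjusted. Over all genes tested these shares were 6.16%, 26.1% and 12.9%. *Fkbp5* had 0.997, 1.17, 1.56, 0.983 and 0.760 FPKM in TG1 to TG5 and 4.39, 2.27, 5.04, 3.24 and 2.14 FPKM in WT1 to WT5. All HSD17B1TG mice were below all WT mice, as for *Per1* and for 2.65% of the genes tested. *Fkbp5* fell by 1.65 on the log2 scale (SE 0.28, edgeR adjusted p = 0.0199), and 7 of the 10 fits without a mouse kept it under 0.05. *Sgk1* and *Cdkn1a*, of the same list, had log2 fold changes of 0.97 and 1.60 (adjusted p = 0.078 and 0.0854 in edgeR, 0.0345 and 0.0227 in DESeq2). Without WT4, in a fit that called 1539 of all genes, *Cdkn1a* had 2.21 with an edgeR adjusted p of 0.0131. The list did not move in 1 direction: 3 of the 8 genes were higher and 5 lower, with a median of -0.19. The study reports lower serum progesterone in transgenic than in WT females of the age used here. The part of progesterone or of glucocorticoids in the *Fkbp5* levels was not tested.

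**Figure D5:**
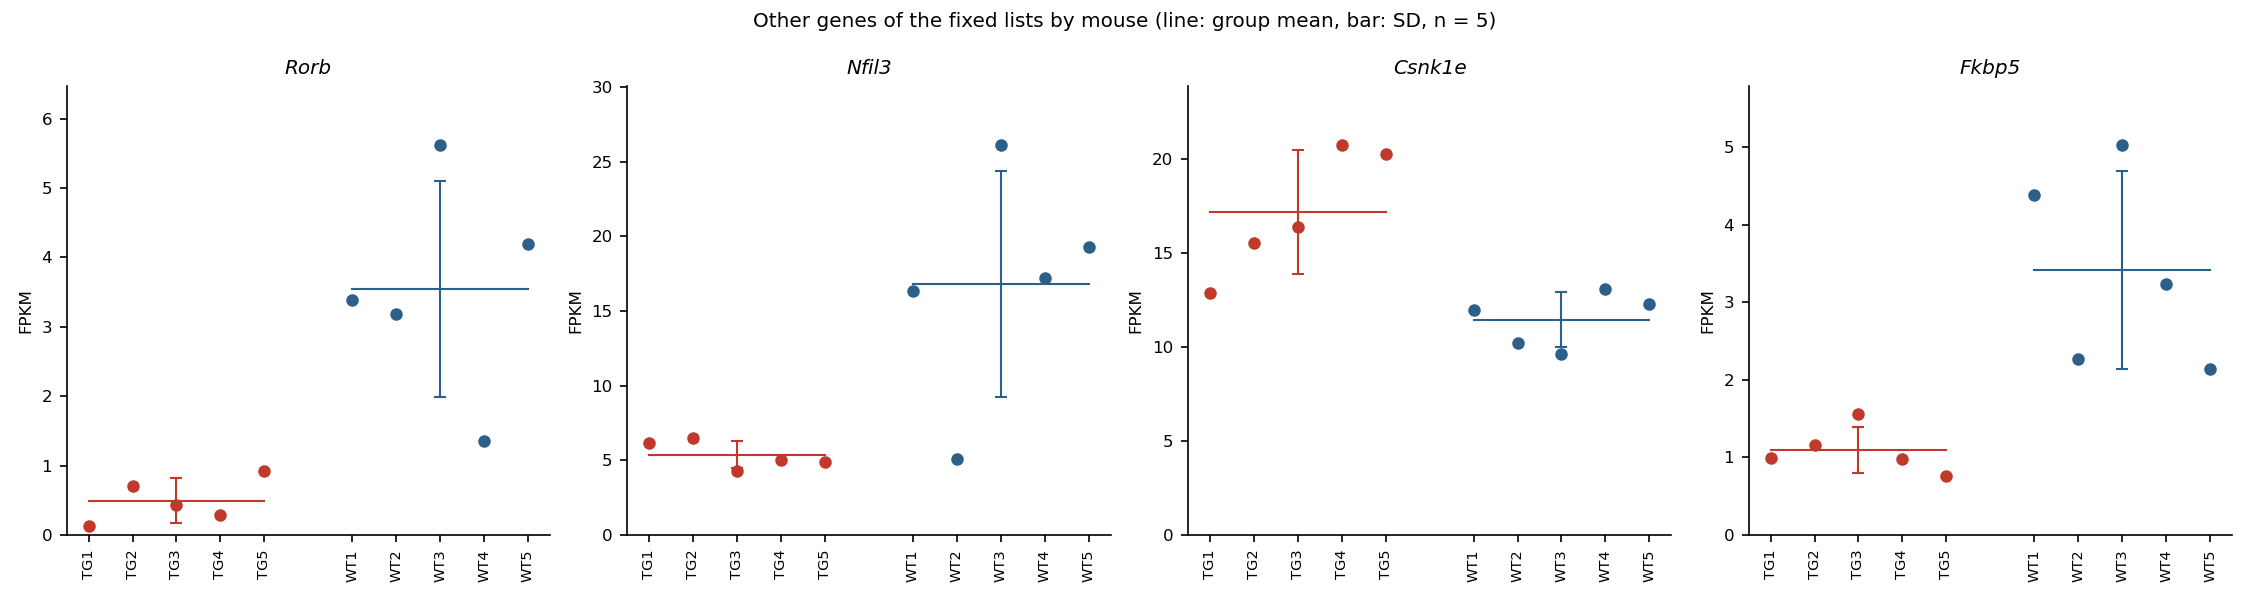
FPKM of *Rorb*, *Nfil3*, *Csnk1e* and *Fkbp5* (vertical axes, linear from 0) in each mouse, with HSD17B1TG in red, WT in blue, lines at the group means and bars for the SD (n = 5). The groups do not overlap for *Rorb* and *Fkbp5*, WT2 with 5.12 FPKM joins the HSD17B1TG mice for *Nfil3*, and TG1 with 12.9 FPKM lies below WT4 for *Csnk1e*.

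Of the 12 hypoxia-responsive genes, 8 were higher and 4 lower in HSD17B1TG, and 0 reached an adjusted p under 0.05 in edgeR, while 7 had an unadjusted p under 0.05 and DESeq2 gave 2 under 0.05 adjusted. Over all genes tested these shares were 6.16%, 26.1% and 12.9%. The 3 hypoxia-responsive genes with the smallest p were *Egln3*, *Ankrd37* and *Slc2a1*, with log2 fold changes of 2.30, 2.40 and 0.80 (adjusted p = 0.0825, 0.0832 and 0.0907 in edgeR). Without WT4 they were 3.34, 3.88 and 1.04 (adjusted p = 0.0094, 0.0026 and 0.0202 in edgeR). The fit without WT4 called 1539 of all genes, beside 721 with all mice. With WT4 kept, *Egln3* and *Ankrd37* passed in DESeq2 (adjusted p = 0.0114 and 0.0104) and in limma voom (0.0357 and 0.0372), and *Slc2a1* did not. *Ankrd37* had 14.2, 22.3, 6.60, 6.49 and 17.3 FPKM in TG1 to TG5 and 0.899, 0.684, 0.846, 9.09 and 1.17 FPKM in WT1 to WT5. WT4 stood above the other WT mice here as for *Bhlhe40*, and above TG3 and TG4.

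The order of the members by their median level differed between the groups. In HSD17B1TG the order was *Bhlhe40* (75.7 FPKM), *Nr1d1* (19.1), *Dbp* (9.45), *Per2* (7.95), *Cry1* (7.50), *Per1* (5.60), *Cry2* (4.74), *Clock* (4.41), *Per3* (3.44) and *Arntl* (2.95). In WT it was *Nr1d1* (13.4 FPKM), *Per1* (12.4), *Bhlhe40* (9.70), *Per2* (8.52), *Dbp* (7.20), *Cry1* (6.49), *Clock* (6.19), *Cry2* (5.76), *Per3* (3.42) and *Arntl* (3.15). The ranges of the 5 mice overlapped for every pair of neighbours in both orders. *Arntl* and *Per3* were the lowest in both groups.

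The members also differed in how far mice of the same group lay apart. The pooled within-group SD of log2 CPM was 1.17 for *Bhlhe40*, larger than in 91.7% of the genes tested, and 0.78 for *Nr1d1*, larger than in 76.6%. It was 0.61 for *Per2* and 0.59 for *Dbp*, and the lowest was 0.30 for *Arntl*. The median over the members was 0.37, beside 0.44 over all genes tested. The wide genes were wide in different groups: for *Bhlhe40* the SD was 0.72 in HSD17B1TG and 1.49 in WT, while for *Nr1d1* HSD17B1TG had the larger value. By group, the median SD of the members was 0.42 in both, beside 0.44 over all genes in HSD17B1TG and 0.37 in WT.

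As a description, the genes most like 3 of the members were sought by Pearson's r of log2 CPM over the 10 mice, among protein-coding genes. The mice share the genotype difference and the tissue makeup, and no p is given. For *Arntl* the highest r were those of *Net1* (0.81), *Supt20*, *1700020L24Rik*, *Rbks* and *Pdrg1*, and the lowest those of *Hmgxb4* (-0.91), *Oscp1*, *Efcab9*, *Cetn2* and *Cd300a*. For *Dbp* they were *Thbs1* (0.94), *Slc48a1*, *Srgap1*, *Thumpd2* and *Cacnb3*, and *Brwd3* (-0.91), *Nfyc*, *Farsa*, *Pde3b* and *Mecr*. For *Bhlhe40* they were *Dhrs9* (0.995), *Serinc2*, *Lcn2*, *Eif5* and *Slc45a3*, and *Ebpl* (-0.98), *Pcsk5*, *Ggta1*, *Glt8d1* and *Gm3411*. None of these 30 genes is on the list of other clock genes.

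Some members share bases with other genes, and the strand setting of the counting is not given in the sources used here, so reads there could have gone to either gene. *Nr1d1* shares 263 exonic bases (8.55% of its exons) with *Thra* on the opposite strand, and *Dbp* shares 539 (18.0%) with *Sphk2*. *Thra* was at 16.6 ± 9.59 FPKM in the HSD17B1TG mice and 17.9 ± 2.32 FPKM in the WT mice (SD, n = 5). *Sphk2* was at 11.3 ± 1.09 and 10.6 ± 1.13 FPKM. Neither differed with an adjusted p under 0.05 in edgeR. *Bhlhe40* shares 118 exonic bases (2.51%) with the antisense gene *0610040F04Rik*, *Cry2* shares 295 (4.67%) with *D930015M05Rik*, and *Arntl* shares 33 with *Gm45355*. *Per3* lies inside *Camta1* and *Clock* holds *Ube2n-ps1*, with 0 shared exonic bases in both. For *Per1*, *Per2* and *Cry1* no overlapping gene was found.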

How the data were processed

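RNA from the uteri of 5 HSD17B1TG and 5 WT mice was read in pairs of 150 bp. The authors used HISAT2 2.0.5 to map them to GRCm38 with Ensembl 94 and deposited 1 table that gives, per gene and mouse, a raw count, the signal (the count divided by the size factor of DESeq2) and FPKM. The authors scaled FPKM by the same size factors. The counting program is not given in the sources used here. The deposited table also holds the authors' own fold changes and p-values, which were not used.

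Mice were grouped by the genotype in the labels, which name no batch. The counts went into edgeR 4.0.16 under R 4.3.3 (filterByExpr, TMM, quasi-likelihood test, Benjamini-Hochberg over 16993 genes). Alternatives were DESeq2 1.42.0, limma 3.58.1, other normalizations and filters, and each mouse left out in turn. Log2 CPM used a prior count of 2, and single genes were also tested over all assignments of the mice to groups of 5. In simulated counts edgeR found 29 of 100 genes changed 2-fold and 76 of 100 changed 4-fold, of 16657 tested. No other genes were changed there, and those changed had a mean count over 100. The data held 1046 genes with an adjusted p under 0.05, so these rates need not be those of this comparison. Overlaps came from GENCODE M21, in which all 10 members have the coordinates of the table, and promoters from RefSeq (GRCm38.p6).

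The members, lists and tests were chosen with earlier results of these data known. Genes named are the members, the genes overlapping them, the 5 most and least like *Arntl*, *Dbp* and *Bhlhe40*, and, of each response or clock list, those with an adjusted p under 0.05 and the 3 with the smallest p. Mouse *Hsd17b1* and examples from the marker lists are named too, the latter chosen after their values were seen, as were others where the text says so. Single genes of 2 lists are not reported here by name, though they stay in the counts.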

Additional observations from a re-analysis of the deposited data

Results flagged for a closer look

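In 1 of the 38 groups of 5 mice tested for a mouse far from its group, such a mouse was found, and chance gives about 1 in 20. It was *Ankrd37*, a hypoxia-responsive gene, in WT4, at 9.09 FPKM where the other WT mice had 0.684 to 1.17 FPKM.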

How the results depend on the processing

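Over all genes 721 were called (367 higher, 354 lower), 1572 with DESeq2 (906 higher, 666 lower), and from 65 (without TG5) to 1539 (without WT4) with 1 mouse left out. With library totals alone the split was 286 higher and 494 lower and the median log2 fold change of all genes -0.17, with limma voom it was 391 and 189, and with limma on log2(FPKM + 1) 416 and 228. Of the members 0 were called, but 1 with DESeq2 (*Bhlhe40*), 1 (*Per1*) with upper-quartile normalization, with library totals, with no filter on low counts or with the adjusted p alone, and 0 to 2 with a mouse left out (both *Bhlhe40* and *Per1* without WT4). Of the other clock genes 2 were called (*Nfil3* and *Rorb*), 5 with DESeq2, 1 with limma voom, and 0 to 4 with a mouse left out. The correlation of *Arntl* with *Dbp* lay between -0.70 and -0.31 with a mouse left out. The signs of the changes nearest 0 turned. *Cry1* (0.0026) was -0.086 with upper-quartile normalization, -0.16 with library totals, -0.037 with no filter, -0.019 with a minimum of 1 CPM, -0.011 with limma voom and -0.12 to 0.12 with a mouse left out. *Arntl* (0.023) was -0.064, -0.14, -0.022 and -0.0053 with the first 3 of these and limma voom, and -0.11 to 0.11 with a mouse left out. The causes were not tested. With library totals both lie near the median of all genes. Of 361 values for 19 genes under these alternatives, 296 kept direction and side of the threshold, 24 passed it newly, 22 lost it and 19 turned in sign. With 5 mice per group and unknown collection hours, the intervals leave room for log2 fold changes of up to 0.48 in *Arntl* and 0.52 in *Cry1*. No paired analysis was made. The labels carry numbers for each mouse, but do not say what they mean or whether they tie mice of the 2 groups.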

Other observations

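*Nr1d2*, the paralog of *Nr1d1*, was named after its values were seen. It had 25.8, 12.6, 12.1, 26.03 and 24.2 FPKM in TG1 to TG5 and 17.00, 19.5, 11.6, 14.03 and 20.1 FPKM in WT1 to WT5, so TG1, TG4 and TG5 were the 3 highest mice, as they were for *Nr1d1*. Its log2 fold change was 0.29 (SE 0.26, edgeR adjusted p = 0.521). *Sgk1*, the glucocorticoid- and salt-induced kinase, had 32.7, 14.7, 11.7, 28.1 and 33.8 FPKM in TG1 to TG5 and 15.6, 12.3, 10.7, 14.5 and 8.56 FPKM in WT1 to WT5, again with TG1, TG4 and TG5 as the 3 highest mice.

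The likeness of *Per1* was read after its values were seen and is a description over 10 mice that share the genotype difference. The highest Pearson's r of log2 CPM were those of *Cd244a* (0.99), *Tigit*, *Prf1*, *Atp8b1* and *Il2rb*, of which *Cd244a*, *Tigit*, *Prf1* and *Il2rb* are known as genes of natural killer and cytotoxic lymphocytes. The lowest were those of *Ankrd9* (-0.93), *Pcdh15*, *Gadd45b*, *C330007P06Rik* and *Nipal3*.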
